A study of Mus musculus with 10 samples.

Results

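The promoters of 315 zinc finger protein genes with a Zfp symbol carried H3K4me2 through retinal maturation, and few of them carried H3K27me3. The set was chosen by name alone: every symbol of the form Zfp followed by a number, and at most 1 letter after it, was taken, which gave 315 of the 20045 symbols in the table (1.57%). Each is represented by the window of 2.5 kb on either side of its transcription start site (TSS). Where a symbol occurred more than once, the entry whose 8 values summed highest was kept. This applied to 58 members, of which 37 had equal values in every entry and 21 did not.

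The libraries came from mouse retinas at E17.5 (written E17 in the sample titles), PN1, PN7 and PN15, the days counted from conception and from birth, with 1 library for each of the 2 marks at each of the 4 stages. At least 20 retinas were pooled per stage, so animals cannot be told apart within a library. The study describes the mice as wild type C57BL/6j, whereas the strain tag of every sample reads Pde6b (rd1/rd1), a photoreceptor degeneration allele that the titles give only to a PN30 library. That library and an anti-GFP control library, 2 of the 10 samples, had no column in the table and were not analysed here. With 1 library for each mark and stage there was no replicate, and no p-value was computed. A difference between stages cannot be told apart from a difference between libraries. Values are normalized occupancies, that is, read midpoints in the window, scaled by the authors for the depth of each library and given as whole numbers.

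Zfp genes mostly encode proteins with C2H2 zinc fingers, short folds that hold a zinc ion and read DNA bases, often arranged in long arrays. A large subset also carries a KRAB domain, which recruits the corepressor Trim28 and with it the H3K9 methyltransferase Setdb1 and other silencing factors. KRAB zinc finger genes lie in clusters that arose by tandem duplication, and many of their proteins bind retroelements. H3K4me2 marks active and poised promoters and enhancers, and H3K27me3 is the product of Polycomb repressive complex 2 and marks repressed genes.

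A protein was found for 312 of the 315 members. Translated products of 150 members matched the KRAB A box at 18 or more of 40 consensus positions, 17 matched the SCAN domain, a dimerization domain, and 3 matched the BTB domain. The median number of C2H2 fingers was 10 for all members, 12 for those with a KRAB A box and 7 for those without. At the extremes, 1 protein or more held 36 fingers, and 13 had no match to the finger pattern, among them proteins whose fingers are of another class such as Zfp36. A second member lay within 200 kb of 170 of the 312. Chromosome 7 held 78 members, chromosome 17 held 29 and chromosome 13 held 28.

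The 250 bases before the annotated TSS (mm9, GENCODE vM1, longest protein-coding transcript) are printed for 6 members that stand for the patterns described below, with every CG dinucleotide in capitals. Zfp536 (chr7:38554772-38555021, minus strand) had the highest summed H3K4me2, Zfp503 (chr14:22808824-22809073, minus strand) carried both marks, and Zfp296 (chr7:20162386-20162635, plus strand) had the highest summed H3K27me3. Zfp97 (chr17:17258129-17258378, plus strand) and Zfp738 (chr13:67784405-67784654, minus strand) lost signal at PN7, and Zfp42 (chr8:44392364-44392613, minus strand) carried neither mark at any stage.
Zfp536: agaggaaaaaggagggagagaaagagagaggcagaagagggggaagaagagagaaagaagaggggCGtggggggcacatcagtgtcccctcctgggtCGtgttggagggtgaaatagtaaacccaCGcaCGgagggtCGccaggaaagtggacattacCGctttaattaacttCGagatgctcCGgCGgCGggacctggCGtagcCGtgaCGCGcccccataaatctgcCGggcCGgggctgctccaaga
Zfp503: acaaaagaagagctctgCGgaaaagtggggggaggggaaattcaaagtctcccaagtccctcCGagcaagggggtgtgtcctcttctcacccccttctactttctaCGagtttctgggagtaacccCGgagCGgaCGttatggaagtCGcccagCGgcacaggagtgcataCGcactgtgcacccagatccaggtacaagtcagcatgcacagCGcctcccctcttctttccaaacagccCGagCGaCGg
Zfp296: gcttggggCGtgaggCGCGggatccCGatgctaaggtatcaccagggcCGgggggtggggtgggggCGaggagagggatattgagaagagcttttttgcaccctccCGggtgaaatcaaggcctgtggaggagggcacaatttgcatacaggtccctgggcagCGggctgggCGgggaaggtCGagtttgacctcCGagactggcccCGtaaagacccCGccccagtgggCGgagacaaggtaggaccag
Zfp97: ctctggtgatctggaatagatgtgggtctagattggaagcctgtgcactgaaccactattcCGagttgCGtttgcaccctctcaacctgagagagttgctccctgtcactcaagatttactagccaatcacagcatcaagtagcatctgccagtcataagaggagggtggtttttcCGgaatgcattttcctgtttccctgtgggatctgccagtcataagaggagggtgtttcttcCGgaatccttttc
Zfp738: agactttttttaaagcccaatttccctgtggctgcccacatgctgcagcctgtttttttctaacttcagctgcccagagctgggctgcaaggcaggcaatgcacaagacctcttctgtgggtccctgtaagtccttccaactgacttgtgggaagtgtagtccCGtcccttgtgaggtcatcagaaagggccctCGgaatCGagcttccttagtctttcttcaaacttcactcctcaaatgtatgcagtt
Zfp42: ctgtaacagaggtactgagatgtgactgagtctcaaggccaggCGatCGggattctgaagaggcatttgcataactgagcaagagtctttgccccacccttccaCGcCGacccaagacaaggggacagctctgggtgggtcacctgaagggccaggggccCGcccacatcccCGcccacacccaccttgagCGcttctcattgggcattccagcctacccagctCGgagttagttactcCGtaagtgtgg
These stretches held 16, 13 and 14 CG dinucleotides in Zfp536, Zfp503 and Zfp296, 4 in Zfp97, 3 in Zfp738 and 9 in Zfp42.

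H3K4me2 was above background at nearly every member. The background of a library was set at the 95th percentile of 1047 olfactory receptor genes, a family used in nasal sensory neurons, and lay at 4, 8, 1 and 7 for H3K4me2 in order of stage (E17.5, PN1, PN7, PN15). Above it were 302 members at E17.5 (95.9%, against 77.2% of all symbols), 297 at PN1 (94.3%, against 72%), 293 at PN7 (93%, against 72.1%) and 298 at PN15 (94.6%, against 70.9%). At all 4 stages together it was 290 members (92.1%, against 66.9%), and at no stage 12 members (3.81%, against 19.6%). The member medians were 53, 37, 28 and 62, above the medians of all symbols at each stage (41, 27, 24 and 42). The order of the stages was the same in both, with PN7 lowest and PN15 highest.

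H3K27me3 was above background at few members. The background was higher for this mark, at 21, 22, 22.7 and 29 in order of stage. Above it were 30 members at E17.5 (9.52%, against 24.3% of all symbols), 34 at PN1 (10.8%, against 24.8%), 26 at PN7 (8.25%, against 24.3%) and 18 at PN15 (5.71%, against 19.3%). A total of 40 members passed at any stage (12.7%, against 30.5%) and 12 at all 4 (3.81%, against 15.5%). The member medians of 9, 9, 7 and 9 lay slightly under those of all symbols (11, 10, 9 and 10). Where the background was set at the 99th percentile, 21 members passed at any stage.

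**Figure D1:**
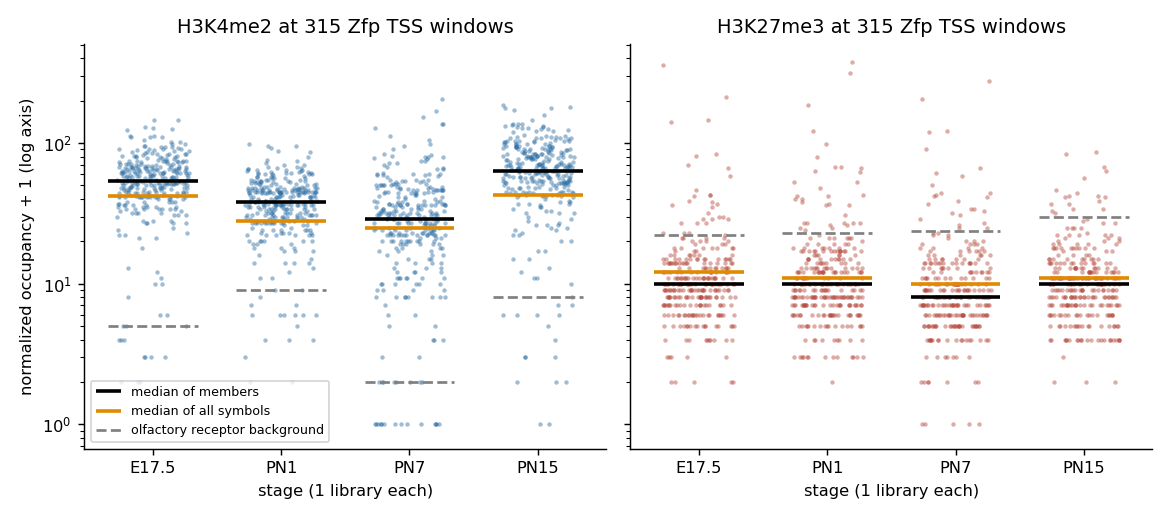
Normalized occupancy plus 1, on a log axis, of H3K4me2 (left) and H3K27me3 (right) at the 315 Zfp TSS windows in each library, 1 point per member, with the median of the members, the median of all symbols and the olfactory receptor background. Nearly all H3K4me2 points lie above the background line at every stage, while the H3K27me3 medians of 9, 9, 7 and 9 lie below it, and at PN7 a set of 14 H3K4me2 points sits at 0.

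Taking both marks together, 253 members had H3K4me2 at all 4 stages and H3K27me3 at none (80.3%, against 44.3% of all symbols). Both marks were above background at 28 members at E17.5 (8.89%, against 22.1%), 31 at PN1 (9.84%, against 20.9%), 25 at PN7 (7.94%, against 21%) and 16 at PN15 (5.08%, against 15.2%), or 34 at PN15 with all libraries rescaled to the same median. At every stage together both marks were found at 10 members (3.17%, against 12.1%). Neither mark was found at any stage at 11 members (3.49%, against 16.9%). Since each library pools many retinal cell types, both marks at a promoter can come from different cells. The number of cells of a type and the signal per cell cannot be told apart in these pools.

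Other families of the same table were counted in the same way, and no difference was tested. Of 37 Zbtb genes, which pair zinc fingers with a BTB domain, 35 had H3K4me2 at all 4 stages (94.6%) and 10 had H3K27me3 at some stage (27%). Of 22 Zscan and Zkscan genes, 16 had H3K4me2 at all 4 stages (72.7%) and 3 had H3K27me3 at some stage (13.6%). Of 296 vomeronasal receptor genes, which like the KRAB zinc finger genes lie in tandem arrays, 0 had H3K4me2 at all 4 stages and 259 had neither mark.

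The highest H3K4me2 sums belonged to Zfp536, Zfp516, Zfp462, Zfp687 and Zfp526. Zfp536, a repressor of neuronal differentiation genes, had an H3K4me2 occupancy of 111, 87, 206 and 157 in order of stage. It was 1 of 7 members with their highest H3K4me2 at PN7. H3K27me3 at the same window was 1, 2, 9 and 17, never above background. Zfp462, a chromatin regulator of development, had 127, 95, 135 and 178 for H3K4me2, and H3K27me3 between 3 and 7.

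H3K27me3 was highest at Zfp296, a gene known from pluripotent cells. Its H3K27me3 occupancy was 356, 374, 274 and 82 in order of stage, and its H3K4me2 was 30, 15, 21 and 22. The first 3 H3K27me3 libraries stood far above the last, with a fall of 4.34-fold from E17.5 to PN15 (counting interval 3.41 to 5.59, exact Poisson 95%, with 1 unit taken as 1 read). These intervals cover counting error only. Each whole number from 0 to at least 109 occurred in every library, so that 1 read was worth no more than about 1 unit.

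Zfp503, a repressor in striatal and limb development, carried much of both marks. Its H3K27me3 was 212, 316, 204 and 86, and its H3K4me2 was 92, 71, 98 and 124. H3K27me3 was thus 2.47-fold lower at PN15 than at E17.5 (1.91 to 3.21), while H3K4me2 was 1.35-fold higher (1.02 to 1.78). Its paralog Zfp703 had less H3K27me3, at 28, 41, 33 and 40, with H3K4me2 at 87, 60, 153 and 120.

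Zfp580, Zfp385c and Zfp575 were next in summed H3K27me3. Zfp580 had H3K27me3 at 146, 187, 118 and 36, with H3K4me2 at 88, 66, 59 and 95. Zfp385c had H3K27me3 at 141, 120, 120 and 55, with H3K4me2 no higher than 19. Zfp575 had H3K27me3 at 82, 97, 60 and 41, with H3K4me2 between 11 and 23. The window of Zfp804a, whose human ortholog is associated with schizophrenia, held similar amounts of both, with H3K27me3 at 65, 67, 90 and 38, and H3K4me2 at 61, 59, 59 and 60. Zfp143, a factor found at promoters and CTCF-bound loops, had H3K27me3 of 80, 66, 15 and 43, so that the PN7 value was the lowest, and H3K4me2 of 78, 54, 57 and 80. Of the 12 members with H3K27me3 at all 4 stages, 10 also had H3K4me2 at all 4. The exceptions were Zfp541, with H3K4me2 of 2, 8, 0 and 9 against H3K27me3 of 45, 52, 66 and 41, and Zfp185 (named here after their values were seen).

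**Figure D2:**
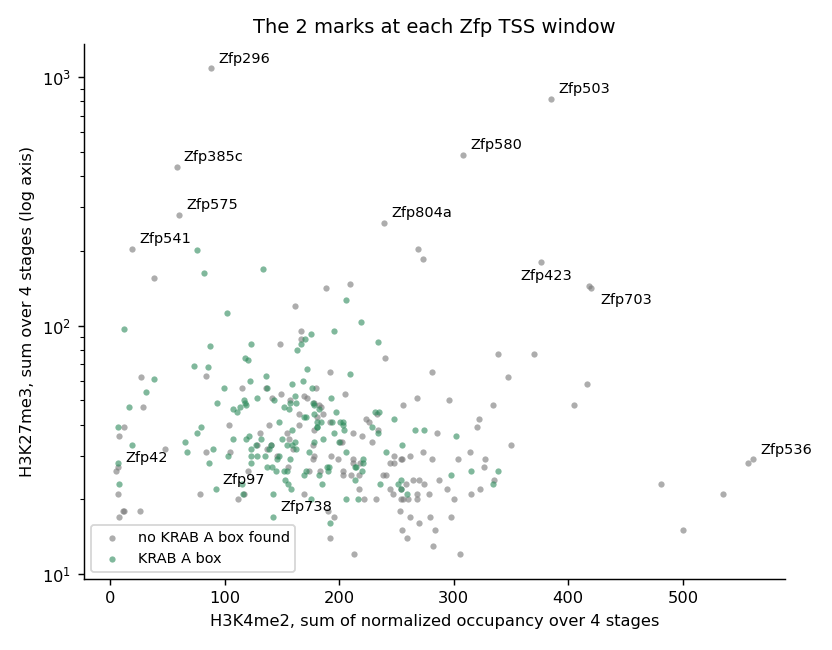
H3K27me3 summed over the 4 stages, on a log axis, against H3K4me2 summed over the 4 stages for each of the 312 members with a protein in the annotation, in green where a KRAB A box was found and in grey where it was not. Zfp296, Zfp503 and Zfp580 stand at the top, at H3K27me3 sums above those of every other member, Zfp536 stands at the right, and Zfp42 lies in the low group at the left.

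Changes were measured as log2 of the later over the earlier occupancy, each plus 1, less the median over all symbols. A change was called where it was at least 1, that is 2-fold, and the larger value was at least 20. The median over all symbols that was subtracted was -0.42 from E17.5 to PN1, -0.50 from PN1 to PN7, 1.0 from PN7 to PN15 and 0.13 from E17.5 to PN15 for H3K4me2, and no larger than 0.16 in size for H3K27me3.

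From E17.5 to PN15, H3K4me2 changed at few members. It was called higher at 3 (0.952%, against 1.99% of all symbols) and lower at 7 (2.22%, against 5.35%), and without subtraction of the median at 6 and 6. With counting intervals that do not overlap in place of a 2-fold change, and also without subtraction of the median, it was higher at 24. These alternatives were counted over members only, so no share of all symbols stands beside them. The median member differed from all symbols by 0.10 on the log2 scale, with quartiles of -0.13 and 0.35. Zfp710 rose most. Its H3K4me2 was 27, 49, 105 and 97, a rise of 3.59-fold (2.32 to 5.73), and H3K27me3 stayed between 2 and 9. Zfp827 had 45, 44, 112 and 119, a rise of 2.64-fold (1.86 to 3.81), which also lay between PN1 and PN7. Zfp385b rose later, at 52, 43, 50 and 128.

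Among the falls, Zfp185 went from 21 at E17.5 to 5, 7 and 5, a fall of 4.20-fold with a wide interval (1.54 to 14.3), at an H3K27me3 of 34, 47, 42 and 33. Zfp811, a KRAB member, had 67, 30, 16 and 24 (2.79-fold lower, 1.73 to 4.65). Zfp488, a regulator of oligodendrocyte development, had 57 and 56 before and at PN1, then 24 and 28 (2.04-fold lower, 1.27 to 3.32). Zfp599 had 31, 18, 12 and 12. Zfp575 had 23, 13, 13 and 11, and the interval of its ratio included no change (2.09-fold lower, 0.979 to 4.75).

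H3K27me3 was called higher from E17.5 to PN15 at 4 members (1.27%, against 4.52% of all symbols) and lower at 10 (3.17%, against 8.96%). The 4 that rose were Zfp608, Zfp238, Zfp423 and Zfp612. Zfp608 had H3K27me3 of 2, 2, 6 and 67, with nearly all of the signal in the PN15 library, while H3K4me2 was 125, 91, 71 and 83. Its ratio of 33.5 rests on 2 at E17.5 and has a counting interval from 8.92 to 282. H3K27me3 at Zfp238, a repressor in cortical neuron development, was 5, 9, 13 and 31 (6.20-fold, 2.39 to 20.4), beside H3K4me2 of 145, 97, 45 and 129. Zfp423, needed for cerebellar and midline development, had 14, 26, 43 and 62 (4.43-fold, 2.45 to 8.57), beside H3K4me2 of 80, 61, 169 and 108. In Zfp423 each library was higher than the one of the stage before. Zfp612 had 11, 18, 32 and 27 (2.45-fold, 1.18 to 5.48).

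The 10 that fell comprised Zfp296, Zfp503, Zfp580 and Zfp385c, described above, and Zfp385b, Zfp641, Zfp688, Zfp354b, Zfp113 and Zfp661. Zfp580 fell 4.06-fold (2.80 to 6.02). Zfp385b had 69, 62, 38 and 17 (4.06-fold lower, 2.36 to 7.36). H3K4me2 at the same window was called higher over this interval. Zfp688 had 36, 35, 21 and 11, and Zfp641 had 21, 17, 12 and 6, at or under background throughout. From PN7 to PN15 alone, 7 members fell (2.22%, against 5.82%) and 7 rose (2.22%, against 2.69%). From PN1 to PN7, 3 fell (0.952%, against 2.4%) and 0 rose (against 2.52%), and from E17.5 to PN1, 2 rose (0.635%, against 0.898%) and 1 fell (0.317%, against 0.284%).

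**Figure D3:**
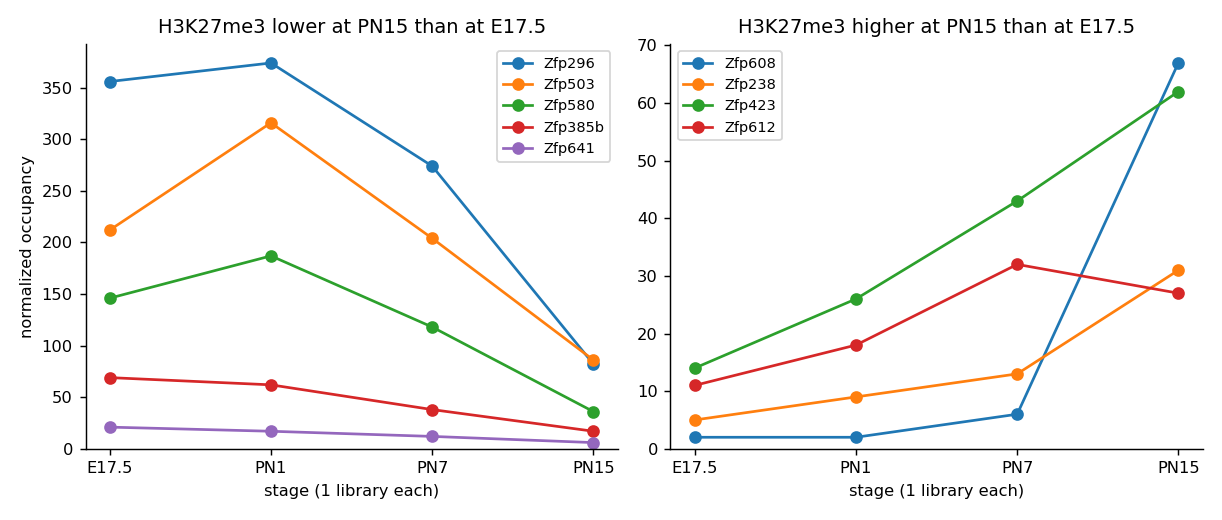
H3K27me3 occupancy in the library of each stage at 5 members that were lower (left) and 4 that were higher (right) at PN15 than at E17.5. Zfp296, Zfp503 and Zfp580 were at their highest at PN1 and at their lowest at PN15, and Zfp608 went from 6 at PN7 to 67 at PN15; the 2 panels have different scales.

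Between neighbouring stages, H3K4me2 differed most in the PN7 library. From E17.5 to PN1 it was called higher at 2 members (0.635%, against 0.234% of all symbols) and lower at 1 (0.317%, against 0.449%), or 0 and 20 without subtraction of the median. From PN1 to PN7 it was called higher at 27 (8.57%, against 13.1%) and lower at 26 (8.25%, against 2.11%), or 10 and 59 without it. From PN7 to PN15 it was called higher at 46 (14.6%, against 3.65%) and lower at 10 (3.17%, against 10.7%), or 168 and 0 without it. The share lower at PN7 was thus above that of the table on either side of PN7, and these comparisons share the PN7 library. The counts without subtraction were made over members only and include the median shift of all symbols.

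A dip at PN7 was called where PN7 lay at least 2-fold below the mean log2 of PN1 and PN15, after subtraction of the median over all symbols (-0.77), with PN1 or PN15 at 20 or more. This held for 31 members (9.84%, against 2.34% of all symbols), or 98 without that subtraction, a count made over members only. It was deepest at Zfp781, Zfp97, Zfp808, Zfp738 and Zfp456, all with a KRAB A box. At Zfp781, H3K4me2 was 40, 33, 0 and 46, and H3K27me3 was 14, 14, 0 and 20. At Zfp97, H3K4me2 was 26, 23, 0 and 43, and H3K27me3 was 8, 6, 0 and 8. In these windows both marks were listed at 0 in the PN7 libraries and above 0 in the others, where H3K27me3 stayed under its background. Zfp808 had H3K4me2 of 40, 28, 1 and 38, Zfp738 had 39, 34, 2 and 67, and Zfp456 had 30, 22, 1 and 23. Over all members, H3K4me2 was listed at 0 at PN7 in 14, H3K27me3 in 5 and both in 4. Zeros at PN7 were thus rarer among members than in the table, at 4.44% against 19.5% of all entries for H3K4me2 and 1.59% against 3.7% for H3K27me3. Members count once per symbol, whereas entries include repeated symbols. By symbol, among those with a position, H3K4me2 was at 0 at 14 of 312 members and 3764 of 19349 symbols. H3K27me3 was at 0 at 5 of 312 and 437 of 19349, a smaller gap than by entries. At the other stages at most 2 members were at 0 in either mark.

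The dips moved with how unique the window was in the genome. Reads with several positions were removed in the authors' processing, yet hardly unique windows such as that of Zfp97 held H3K4me2 in the libraries of the other stages. Uniqueness was measured as the percentage of 31-base words of the window that occur at 1 place in mm9. Of the 11 members under 50%, 7 had a dip, and their median H3K4me2 was 40, 28, 1 and 43 and their median H3K27me3 10, 11, 1 and 12. Of 27 members between 50% and 80%, 8 had a dip, of 134 between 80% and 95%, 10, and of 140 at 95% or more, 4. Over all symbols the shares with a dip in these 4 groups were 13.1%, 6.95%, 2.13% and 1.16%. Counting only windows with an H3K4me2 of 20 or more at PN1 or PN15, which a dip requires, the members with a dip were 7 of 8, 8 of 24, 10 of 124 and 4 of 130, and the shares of all symbols were 87.6%, 25.6%, 3.36% and 1.59%. Of the 217 members whose window was unique in at least 90% of its words, 8 had a dip, and all symbols were not counted at that limit.

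Single windows showed the same order with exceptions. The 5 kb window of Zfp97 was unique in 0.36% of its words and had a copy of 5001 bases at 99.9% identity at chr17:17313792-17318797. That of Zfp781 was unique in 2.53% and had a copy at 99.6% identity at chr10:81212054-81217046. Zfp808 was unique in 25.8%, with 13 further places aligned over 2500 bases or more, the best at 95.9% identity. Zfp738, whose 250 bases are printed above, was unique in 50.3%, with a copy of 2529 bases at 89.4% identity on the same chromosome. Zfp386 was unique in 10.4% of its words and yet kept signal at PN7, with H3K4me2 of 64, 45, 21 and 90, and no copy of 2500 bases or more was found for it. Of the other members under 50%, 3 were low at every stage, with H3K4me2 of 3, 3, 0 and 1 at Zfp345, 5, 10, 0 and 4 at Zfp534 and 5, 6, 0 and 5 at Zfp600 (named after their values were seen). Over all 648 symbols under 50% the median H3K4me2 was 3, 5, 0 and 4. How repeated reads were handled in each library was not tested.

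GC content moved with the PN7 values as well. Of 39 members with a window GC under 42%, 10 had a dip (25.6%, against 3.62% of all symbols in that range), and of 70 with 50% or more, 2 did (2.86%, against 0.913%). These shares rest on unlike bases, since most symbols of low GC did not reach the 20 that a dip requires, and their median H3K4me2 was 3, 4, 0 and 3. The 27 members higher at PN7 than at PN1 had a median GC of 52.5%, and 22 of them were among those 70. They included Zfp423, Zfp536, Zfp703, Zfp521, Zfp462 and Zfp827. Within windows unique in at least 95% of their words and with 20 or more at PN1 or PN15, the median difference of PN7 from PN1 and PN15 was -0.79 on the log2 scale for GC under 42% (7 members) and 0.71 for GC of 50% or more (50 members). Over all symbols the same medians were -0.38 and 0.83. A dip was called in these windows at 1 of the 7 members (14.3%, against 15.1% of all symbols) and 0 of the 50 (against 0.293%). With a GC of 42% to 46% it was called at 3 of 31 members (9.68%, against 3.78%). With a GC of 46% to 50% it was called at 0 of 42 (against 0.635%). These shares rest on few dips. The part of GC and of uniqueness in the PN7 values of these genes was not tested further.

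**Figure D4:**
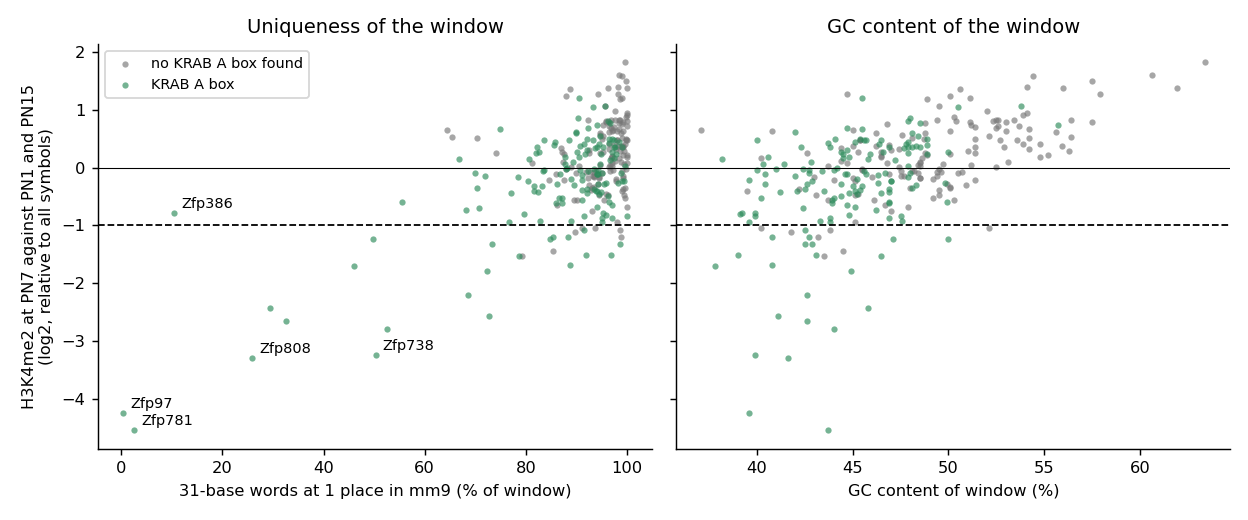
H3K4me2 at PN7 against the mean log2 of PN1 and PN15, relative to all symbols, for members with an occupancy of at least 20 at PN1 or PN15, plotted against the percentage of 31-base words of the window found at 1 place in mm9 (left) and against the GC content of the window (right). Points below the dashed line at -1 are called dips. Zfp781 and Zfp97, under 3% unique, lie lowest, Zfp386 at 10.4% unique lies above the line, and at a GC of 50% or more most points lie above 0, with 2 dips among the 70 members in that range.

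Of the 31 dips, 10 lay on chromosome 13. Of these, 7 had a TSS between positions 67229162 and 67784404, a stretch with 12 members, all with a KRAB A box. The stretch was drawn from the dips themselves, as the longest run with gaps of at most 300 kb, so its ends are dips and its share of dips is a description. The 7 were Zfp759, Zfp458, Zfp457, Zfp595, Zfp456, Zfp429 and Zfp738, whose windows were unique in 50.3% to 91.9% of their words. No other chromosome held more than 5.

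Members with a KRAB A box had lower H3K4me2 medians than those without, and had the mark at every stage at the same rate. The median H3K4me2 was 49, 33, 22 and 54 for the 150 with a KRAB A box and 60.5, 43.5, 36 and 76 for the 162 without. The quartiles at PN15 were 43 and 69 with it and 51.2 and 97 without, so that the groups overlapped widely. H3K4me2 was above background at all 4 stages in 92% of either group, against 66.9% of all symbols. H3K27me3 was above background at some stage in 15 with it (10%) and 24 without it (14.8%), against 30.5% of all symbols. The highest value with a KRAB A box was 67, at PN1. Zfp872 had the largest H3K27me3 among these, at 57, 67, 33 and 45, chosen after its values were seen.

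Dips at PN7 were called at 22 members with a KRAB A box (14.7%) and at 7 without (4.32%), against 2.34% of all symbols, and the other 2 dips were at members with no protein in the annotation. The windows with a KRAB A box had a median uniqueness of 90.9% and a median GC of 44.7%, and those without 96.8% and 48.8%. In windows unique in at least 95% of their words, 2 of 35 members with a KRAB A box and 2 of 95 without had a dip, counting those with 20 or more at PN1 or PN15. Of all symbols on that base, 1.59% did. In windows of that uniqueness the median H3K4me2 was 50, 38, 28 and 59 with a KRAB A box and 63, 44, 45 and 83 without.

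Finger number and position were compared in the same way. Of 25 members with 0 or 1 finger, 8 had H3K27me3 at some stage (32%), and of 51 with 16 fingers or more, 3 did (5.88%), against 30.5% of all symbols, so that the share with few fingers was near that of the table. Dips at PN7 were called at 1 of the former (4%) and 11 of the latter (21.6%), against 2.34% of all symbols. Of 142 members with no other member within 200 kb, 124 had H3K4me2 at all 4 stages (87.3%), and of 95 with 3 or more such neighbours, 94 did (98.9%), against 66.9% of all symbols. H3K27me3 at some stage was found at 24 of the former (16.9%) and 9 of the latter (9.47%), against 30.5%. Clustered members had a lower window GC, with a median of 45.4% against 48% for isolated members.

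CG dinucleotides were counted in the 300 bases from 250 before to 50 after the TSS. The median was 14 for members and 14 for all symbols, 10 with a KRAB A box and 19.5 without. Of 46 members with 0 to 4 CG, 36 had H3K4me2 at all 4 stages. The number was 48 of 58 with 5 to 9, 105 of 109 with 10 to 19 and 98 of 99 with 20 or more, against 66.9% of all symbols of any CG count. The median H3K4me2 at E17.5 in these 4 groups was 40, 41, 52 and 62. At the other stages the group with 5 to 9 CG was the lowest, with 28 against 33.5 for 0 to 4 CG at PN1 and 46.5 against 51 at PN15, and 13.5 itself at PN7, and the group with 20 or more was the highest at every stage. Windows of high H3K4me2 and few CG existed too. Zfp238 had 1 CG and an occupancy of 145 at E17.5, and Zfp608 had 6 and an occupancy of 125. The start used here is that of the longest annotated transcript and need not be the start used for the deposited window.

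**Figure D5:**
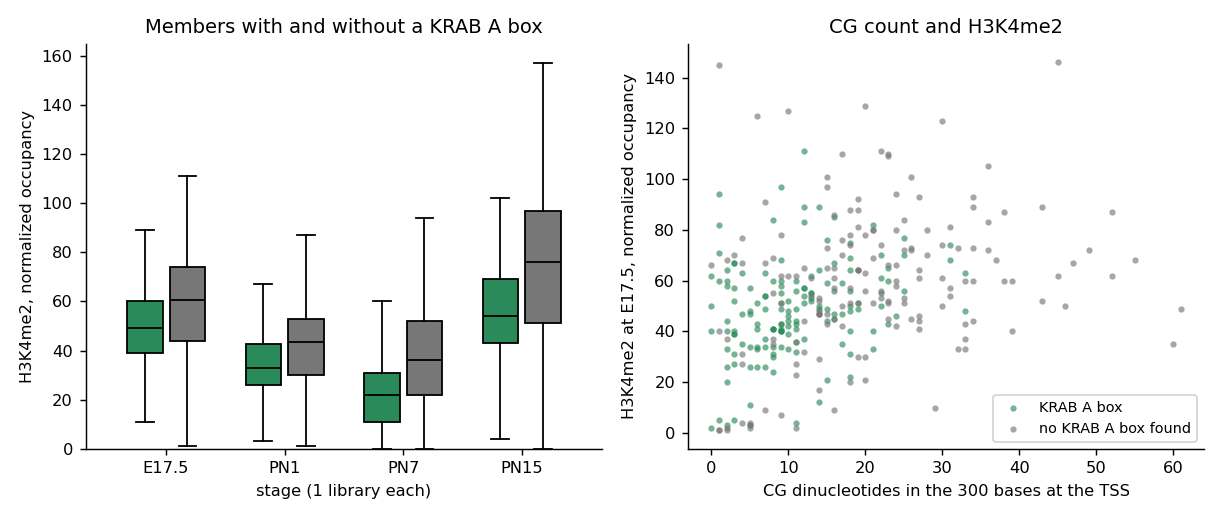
H3K4me2 occupancy by stage in the 150 members with a KRAB A box (green) and the 162 without (grey), as boxes of the median and quartiles with whiskers to 1.5 interquartile ranges (left), and H3K4me2 at E17.5 against the number of CG dinucleotides in the 300 bases at the TSS (right). The grey medians of 60.5, 43.5, 36 and 76 exceed the green medians of 49, 33, 22 and 54, and the points near 0 occupancy lie mostly at low CG counts.

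Short motifs were counted on both strands of the same 300 bases. CCGGAAG, the core bound by ETS factors, was present in 21.2% of member promoters and 11.9% of all promoters. AANATGGC, the YY1 motif, was present in 10.6% and 6.62%. The GC box GGGCGG was present in 42.3% and 48.7%, with 28.7% of members with a KRAB A box and 54.9% of those without. CCAAT was present in 36.5% and 38%, and TATAAA in 9.94% and 12.7%. These are matches of letters and not binding sites.

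The 11 members without either mark comprised Zfp42, Zfp72, Zfp345, Zfp352, Zfp353, Zfp474, Zfp616, Zfp654, Zfp735, Zfp775 and Zfp831. Zfp42, also called Rex1 and used as a marker of pluripotent stem cells, had H3K4me2 of 2, 5, 0 and 0 and H3K27me3 of 6, 6, 4 and 11. At Zfp352, known from the early embryo, H3K4me2 was 2, 3, 0 and 2, and H3K27me3 was 7, 7, 1 and 6. Zfp353 was the lowest over all 8 columns, with H3K4me2 of 1, 6, 0 and 1. Their median CG count was 2, and that of the 12 members with H3K27me3 at all stages was 19. Zfp791, with H3K4me2 no higher than 5 and H3K27me3 of 22, 24, 18 and 33, was the single member with H3K27me3 at some stage and H3K4me2 at none (0.317%, against 2.71% of all symbols).

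Members of known role were followed whatever their values. All 14 developmental and neural members had H3K4me2 at all 4 stages (66.9% of all symbols did), with medians of 76, 58, 54 and 106. H3K27me3 passed background at some stage in 5 of the 14 (against 30.5% of all symbols), namely Zfp503, Zfp804a, Zfp703, Zfp423 and Zfp238, a share near that of the table. From E17.5 to PN15, H3K4me2 was called lower at 1 of them, Zfp488 (against 5.35% of all symbols). H3K27me3 was called higher at 2 (against 4.52%) and lower at 1 (against 8.96%). Zfp521, a cofactor related to Zfp423, had H3K4me2 of 68, 40, 79 and 135 and H3K27me3 of 12, 8, 15 and 7, so that the relatives differed in the second mark. Zfp335, mutated in a human microcephaly, had H3K4me2 of 56, 38, 47 and 97.

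Of 7 members listed for pluripotency, imprinting or retroelement silencing, 6 had an entry, and 5 of these had H3K4me2 at all 4 stages, all but Zfp42 (66.9% of all symbols did), with H3K27me3 above background in 0 (against 30.5%). Zfp57, which maintains methylation at imprinted regions, had H3K4me2 of 33, 22, 24 and 44, and H3K27me3 of 20, 18, 22 and 24, just under background. Zfp445, which acts at imprinted regions as well, had 57, 44, 16 and 84, with a called dip at PN7. Zfp809, which silences retroviral DNA, had 35, 21, 31 and 53. Zfp568, a repressor of a placental Igf2 transcript, had 94, 67, 45 and 128. Zfp281, a factor of pluripotent cells, had 64, 45, 45 and 120.

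Of 4 genes listed because their human orthologs are tied to eye disease, 3 had an entry. All 3 carried H3K4me2 at every stage (66.9% of all symbols did). Zfp513, tied to retinitis pigmentosa, had H3K4me2 of 64, 46, 56 and 82. Zfp408, tied to vitreoretinopathy, had 97, 69, 44 and 94. Zfp644, tied to high myopia, had 62, 40, 47 and 80. H3K27me3 did not pass background in any of these 3 (69.5% of all symbols passed it at no stage), and none of the changes from E17.5 to PN15 was called. Such calls were few over all symbols too, at 1.99% higher and 5.35% lower for H3K4me2. For H3K27me3 they were 4.52% and 8.96%.

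All 11 widely used members had H3K4me2 at all 4 stages (66.9% of all symbols did), with medians of 76, 54, 46 and 89, and no change from E17.5 to PN15 was called in either mark. Zfp36, which binds and destabilizes mRNAs, had 80, 44, 58 and 82. Zfp207, a spindle assembly factor, had 110, 75, 36 and 114. H3K27me3 passed background in 2 of the 11 (against 30.5%), Zfp143 and, at PN1 with 24, Zfp593.

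The corepressor genes that KRAB proteins act through carried H3K4me2 as well. Of 20 listed, 19 had an entry, and all 19 had H3K4me2 at all 4 stages, 17 of them with H3K27me3 at none (44.3% of all symbols had that combination). Trim28 had H3K4me2 of 103, 60, 85 and 139 and H3K27me3 between 5 and 8. Setdb1 had H3K4me2 of 47, 28, 3 and 68, and H3K27me3 of 30, 24, 10 and 21, above background at E17.5 and PN1. The other of the 19 with H3K27me3 was Cbx1, at 27, 25, 23 and 9. As a check of the tissue, the photoreceptor regulators Crx and Nrl had H3K4me2 of 20, 24, 21 and 158 and of 35, 26, 24 and 116, and both were called higher from E17.5 to PN15. By the same rule a rise in H3K4me2 was called at 3 of the 315 zinc finger promoters (0.952%, against 1.99% of all symbols).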

How the data were processed

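ChIP-Seq for the 2 marks was done on pooled mouse retinas. The authors aligned the reads to mm9 with Bowtie 0.12.4, per the submitters' processing notes and the study's methods, and discarded those with several positions. They took the midpoint of each read for a fragment of 190 bp and counted midpoints up to 2.5 kb from every RefSeq TSS. Such a count, normalized to mapped reads and rounded by the authors, is the deposited score. The table has 25152 entries and 8 columns, 1 library each. The scores are not raw counts, so no count model was fitted across genes, and the number of reads behind a score is unknown. The sums of occupancy per library ranged from 590366 to 1200594. Entries at 0 made up 19.5% of the PN7 H3K4me2 library and 3.7% of the PN7 H3K27me3 library, and at most 2.52% of any other.

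Columns were matched to samples by mark and stage in their names. The H3K27me3 column of PN7 carries an added letter b. The antibody catalogue numbers in the labels are exchanged between the marks relative to the study's methods, and the column names were followed. Analyses used Python 3.11.15, pandas 2.3.3 and scipy 1.17.1, and minimap2 2.31-r1302 for copies of windows with under 60% unique words. Counting intervals are exact Poisson intervals at 95% that take 1 unit as 1 read, an assumption and not a measured depth. Of the calls, only that of an H3K4me2 change from E17.5 to PN15 was tested on simulated data. Positions, promoters and translated transcripts came from the mm9 genome with GENCODE vM1, which gave a position to 312 members and 19349 symbols.

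Members named in the text were the 5 highest in each mark, the 5 lowest over all columns, the 5 highest in the smaller of the sums, the 5 largest called changes in each direction and mark from E17.5 to PN15, the 5 deepest dips and those of known role. Other members, such as Zfp386, Zfp791 and those that complete a list of calls, were named after their values were seen. The members, lists and rules were chosen with earlier results of these data known. Alternatives were another background percentile, the mean over entries, rescaled libraries, a pseudocount of 5, no centring, no minimum and counting intervals. Gene expression and the libraries without a column were not analysed here.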

Additional observations from a re-analysis of the deposited data

How the results depend on the processing

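No paired analysis was possible because each mark and stage had 1 library. H3K4me2 at all 4 stages (290 members) was 290 or 291 under every alternative that used 4 stages, and 294 members had it at the remaining 3 stages without the PN7 libraries, an alternative chosen after seeing the data. The other counts moved by over 1.5 times as follows, and where the alternative's own construction does not show the cause, the cause was not tested. With the background at the 99th percentile, H3K27me3 at any stage fell to 21 members, and both marks were found at 17, 12, 12 and 7 members in order of stage. With libraries rescaled to the same median, both marks were found at 34 members at PN15. Without centring, H3K4me2 was called higher and lower at 0 and 20 members from E17.5 to PN1, 10 and 59 from PN1 to PN7, 168 and 0 from PN7 to PN15, and higher at 6 from E17.5 to PN15; H3K27me3 was lower at 6 from PN1 to PN7, and 98 dips were called. With a pseudocount of 5, H3K4me2 was higher at 1 from E17.5 to PN1, lower at 6 from PN7 to PN15 and lower at 4 from E17.5 to PN15, and H3K27me3 was lower at 1 from PN1 to PN7. Without the minimum of 20, H3K4me2 was higher at 9 from E17.5 to PN1, lower at 43 from PN1 to PN7, lower at 16 from PN7 to PN15 and higher at 5 from E17.5 to PN15, and H3K27me3 was higher and lower at 14 and 29, 19 and 32, and 49 and 24 over the 3 steps and at 27 and 36 from E17.5 to PN15. With the mean over entries, H3K4me2 was higher at 1 from E17.5 to PN1 and at 1 from E17.5 to PN15. With counting intervals that do not overlap and no centring, H3K4me2 was higher and lower at 0 and 42, 15 and 49, and 192 and 1 over the 3 steps and higher at 24 from E17.5 to PN15, and H3K27me3 was higher and lower at 4 and 0 from E17.5 to PN1 and lower at 13 from PN1 to PN7. Among the 217 members with windows unique in at least 90% of their words, an alternative chosen after seeing the data, H3K4me2 was higher at 1 from E17.5 to PN1, lower at 6 from PN1 to PN7 and higher at 15 from PN7 to PN15, H3K27me3 was higher at 4 from PN7 to PN15, and 8 dips were called. The other 77 recomputed values stayed within 1.5 times of the reported ones. Every alternative was computed for members only, so no share of all symbols stands beside these counts. Depth limits the lowest windows most, since a value under 10 units may rest on few reads, and neither replicate error nor the anti-GFP background could be measured here.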
